A study of Mus musculus with 6 samples.

Results

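The CXC chemokine genes that call neutrophils into tissue were followed in whole mouse skin, together with the receptor that reads them and with another CXC ligand and receptor that serve other leukocytes. The genes were chosen by symbol: the CXCR2 ligands Cxcl1, Cxcl2, Cxcl3 and Cxcl5, the receptors Cxcr2 and Cxcr4, and the ligand Cxcl16. All 7 had a row among the 17564 genes of the deposited table. Back skin of 8-week-old wild-type C57BL/6 mice, shaved and depilated in both groups, gave bulk RNA sequencing libraries from 3 treated and 3 untreated samples. Treated skin received 3 µg of SspA, the V8 protease of Staphylococcus aureus, with 10 µg of house dust mite extract (HDM) on the surface, again 3 days later, and was taken on day 7. Untreated skin received neither agent, and the labels give no day of collection for it. Whether the samples within a group came from different animals is not stated, so a p-value here speaks only to the variation among these libraries, and that variation may be technical. The question posed by the design was how transcript levels in skin change when protease and mite extract are applied together. Neither agent was given alone in the samples analysed here.

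Values are scaled reads, the authors' deposited values per gene, in which 1 sequenced read was worth 0.840 to 1.29 depending on the library. The libraries held 5606959, 5821622 and 7545567 reads in treated replicates 1 to 3, and 5770072, 4928245 and 5580401 reads in untreated replicates 1 to 3. Fold changes are on the log2(scaled reads + 1) scale, treated over untreated, which understates the change of genes with few reads.

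CXC chemokines are small secreted proteins that bind glycosaminoglycans on endothelium and matrix and steer leukocytes through G protein-coupled receptors. The ligands with a Glu-Leu-Arg motif before the first cysteines, which include CXCL1, CXCL2, CXCL3 and CXCL5, act on CXCR2, the main receptor that draws mouse neutrophils out of blood and into inflamed skin. CXCL16 is made as a membrane-bound protein and is read by CXCR6 on T cells and innate-like lymphocytes, and CXCR4 reads CXCL12, which holds neutrophils in the bone marrow and guides many other leukocytes.

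The promoters of the 3 closely related ligands carried the same pair of short runs, and they are shown because these genes lie in 1 cluster and were all higher in treated skin. Over aligned promoter bases Cxcl1 matched Cxcl2 at 77.7% and Cxcl3 at 76.9%, and Cxcl2 matched Cxcl3 at 76.1%. Pairs with Cxcr2 or Cxcr4 matched at 55.1% to 67.0%. Runs shared by promoters this similar are not independent finds. Each line gives the 120 bases before the annotated start on the plus strand of chromosome 5, from RefSeq with build GRCm38.p6, 5′ to 3′. Capitals mark the κB decamer GGGAATTTCC, the match to the κB consensus that all 3 share, and, nearer the start, the TATA-like run ATAAAAG.
Cxcl1: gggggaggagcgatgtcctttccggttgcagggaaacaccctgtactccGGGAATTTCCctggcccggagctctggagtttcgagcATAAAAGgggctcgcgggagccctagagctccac
Cxcl2: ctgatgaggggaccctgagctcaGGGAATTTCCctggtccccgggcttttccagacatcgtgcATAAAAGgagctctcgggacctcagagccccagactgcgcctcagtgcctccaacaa
Cxcl3: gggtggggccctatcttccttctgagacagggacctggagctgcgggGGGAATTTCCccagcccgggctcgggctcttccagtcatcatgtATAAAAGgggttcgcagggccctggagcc
These stretches are chr5:90891125-90891244 for Cxcl1, chr5:90903779-90903898 for Cxcl2 and chr5:90785981-90786100 for Cxcl3.

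The decamer began 71 bases before the start of Cxcl1, 97 before that of Cxcl2 and 73 before that of Cxcl3. It was searched on both strands in windows of 250 bases before to 50 bases after each start, and 29 of 32851 RefSeq promoter windows held it (0.0883%). The decamer was defined as the κB match that Cxcl1, Cxcl2 and Cxcl3 share, so this percentage is not a test of their windows. The TATA-like run, searched on the given strand and picked after the sequences were seen, lay in the windows of Cxcl1, Cxcl2, Cxcl3 and Cxcr4 and in 3.39% of all windows. A looser κB consensus, searched by name on both strands and overlapping the decamer, was in 8.46% of windows. The AP-1 run TGANTCA, on both strands, was in 7.81% of windows and in none of those of the members matched. The promoter table held 5 of the 7 members, without Cxcl5 and Cxcl16. Of the 16 tested genes whose window held the decamer, 2 rose in treated skin, Cxcl1 and Cxcl2, whose own windows had defined it. Among the same 16 genes 1 fell, the transporter gene Slc6a13, with a log2 fold change of -1.94. Among all tested genes 9.26% were called higher and 7.23% lower. The median over these 16 genes was 0.11, and Nfkbia, which encodes the inhibitor IκBα and holds the decamer too, had a value of -0.02. A match of letters is a description of these windows and does not show that a factor binds there.

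Every member but Cxcl16 was higher in treated than in untreated skin, with no overlap between the groups, and the CXCR2 ligands Cxcl2, Cxcl3 and Cxcl5 had the widest differences. Of the 6 members with enough reads to test, 5 rose in treated skin at an adjusted p under 0.05 (limma with Benjamini-Hochberg adjustment over 15534 genes), beside 9.26% of all tested genes called higher. None of the 6 fell, beside 7.23% of tested genes called lower, at the adjusted or the unadjusted threshold, and edgeR and DESeq2 called none lower either. Treated and untreated values were apart for 5 of the 6 tested members, beside 37.3% of all tested genes. The median log2 fold change of the tested members was 1.50, beside 0.03 for all tested genes. It was 1.52 with Cxcl3 counted against a floor of 3 untreated reads. In a bulk sample of whole skin, more cells of a type and more RNA per cell cannot be told apart.

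**Figure D1:**
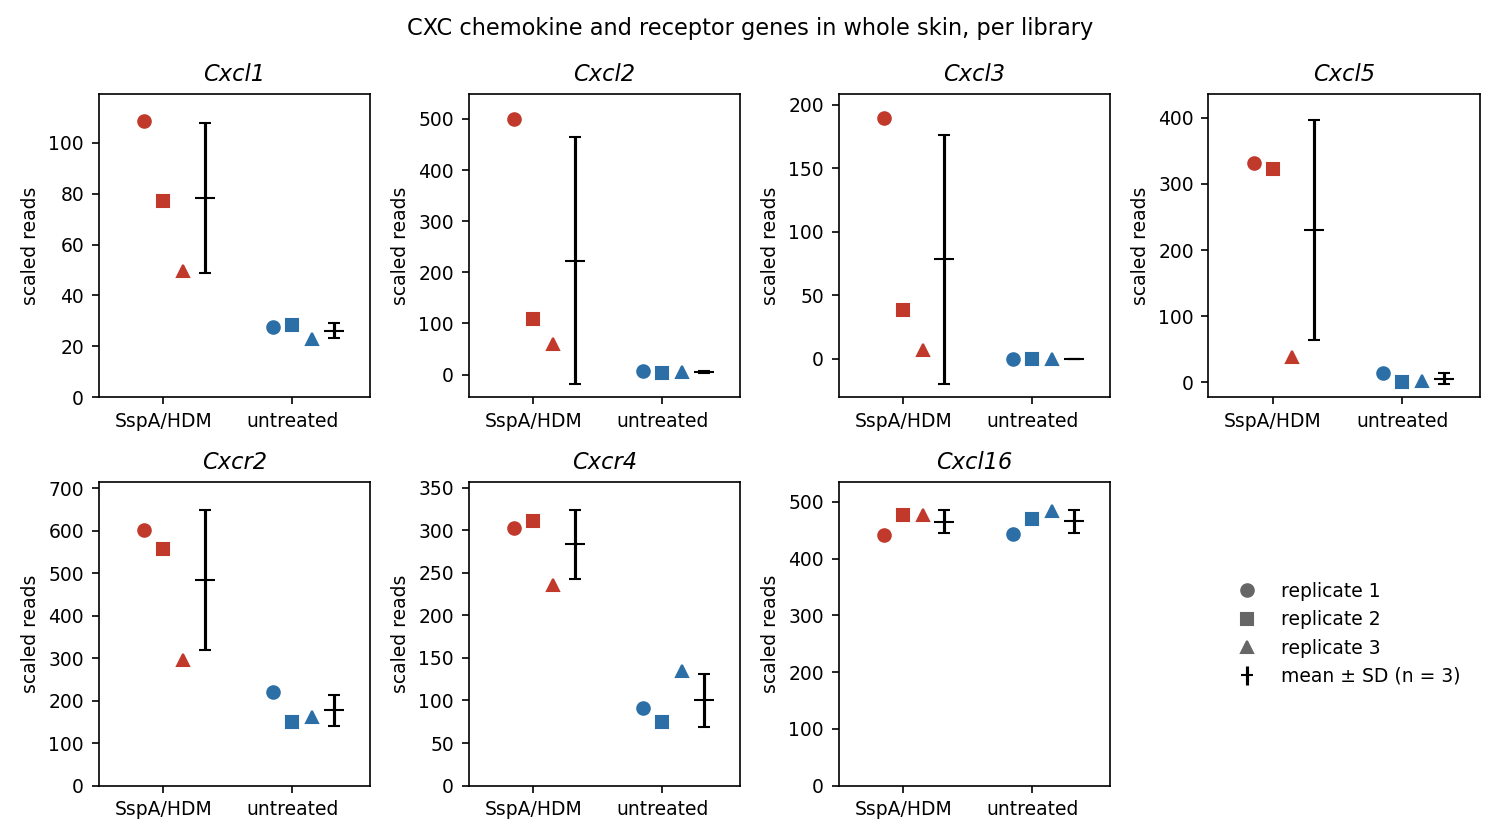
Scaled reads of each gene in the 3 SspA/HDM-treated and the 3 untreated libraries, with the mean ± SD of each group beside the points and a separate vertical scale per gene. Treated and untreated points are apart in 6 panels, and those of Cxcl16 overlap between 441 and 484 scaled reads.

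Cxcl1, whose protein is also called KC and is released early by keratinocytes, fibroblasts and macrophages in inflamed tissue, rose in treated skin. It had 109, 77.3 and 49.6 scaled reads in treated replicates 1 to 3, against 27.5, 28.3 and 22.7 in untreated replicates 1 to 3. The untreated samples lay close together, and the lowest treated sample stood well above the highest untreated one. The log2 fold change was 1.49 ± 0.30 (SE), 2.80-fold, with an adjusted p of 0.0131 (limma). Without treated replicate 2 the adjusted p was 0.0502, and the log2 fold change was 1.46. The transcript, NM_008176, of 943 bases, lies at chr5:90891245-90893115 on the plus strand of mm10.

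Cxcl2, also called MIP-2 and made in quantity by activated macrophages and by neutrophils themselves, rose further. It had 499.8, 109 and 59.7 scaled reads in treated replicates 1 to 3, against 6.59, 2.57 and 5.68 in untreated replicates 1 to 3. Treated replicate 1 held most of the signal, with 442 of the 613 reads of the treated group, while all untreated libraries together held 13 reads. The log2 fold change was 4.72 ± 0.69 (SE), 26.4-fold, with an adjusted p of 0.0047 (limma), and it was the 23rd largest rise among the tested genes. It was 3.85 without treated replicate 1, 5.37 without treated replicate 3, and the call was lost with limma-voom, at an adjusted p of 0.0963. Cxcl2 reached 0.41 reads per base of transcript in treated replicate 1, where no gene of any library exceeded 0.923, and the effect of that limit on the value was not tested beyond an estimate of 4.84 from filled positions. Cxcl2 (NM_009140, 1077 bases) lies at chr5:90903899-90905938 on the plus strand.

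Cxcl3, a close copy of Cxcl2 that also acts on CXCR2, had no read in untreated skin. It had 190.0, 38.1 and 6.72 scaled reads in treated replicates 1 to 3, against 0 in each untreated library. Treated replicate 1 held 168 of the 211 treated reads and treated replicate 3 held 8, so the groups were apart but the treated samples were far from each other. A count of 0 over the untreated group allows a level of up to 1.17 scaled reads, at 3 reads over the group. The pooled treated level was 60.3-fold above this floor (17.5-fold without treated replicate 1), a value that leaves out the treated counting error. For Cxcl3 the ratio of summed reads at equal depth had a 95% lower limit of 48.6, for counting error only and without the spread between samples. Its reads were too few in too many libraries for the filter, so it was not in the limma test. An exact two-sided permutation test over samples gave p = 0.1, the smallest that 3 against 3 samples can give. In the authors' deposited table its log2 fold change was 8.46 with an adjusted p of 0.0023, and limma without the filter gave 5.27 with an adjusted p of 0.0092. Cxcl3 (NM_203320, 1012 bases) lies at chr5:90786101-90788093 on the plus strand.

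Cxcl5, a longer CXCR2 ligand known as LIX that epithelial and stromal cells make, had the largest log2 fold change of the tested members and the 6th largest rise among all tested genes. It had 331, 322 and 38.7 scaled reads in treated replicates 1 to 3, against 14.3, 0 and 1.14 in untreated replicates 1 to 3. Treated replicates 1 and 2 were alike and treated replicate 3 was far lower, and untreated replicate 1 held 13 of the 14 untreated reads. The log2 fold change was 5.66 ± 1.07 (SE), 50.7-fold, with an adjusted p of 0.0109 (limma). It ran from 4.83 without untreated replicate 2 to 6.79 without untreated replicate 1, and was 6.68 without treated replicate 3. With limma-voom the call was lost, at an adjusted p of 0.113. Cxcl5 (NM_009141, 1650 bases) lies at chr5:90759298-90761625 on the plus strand.

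**Figure D2:**
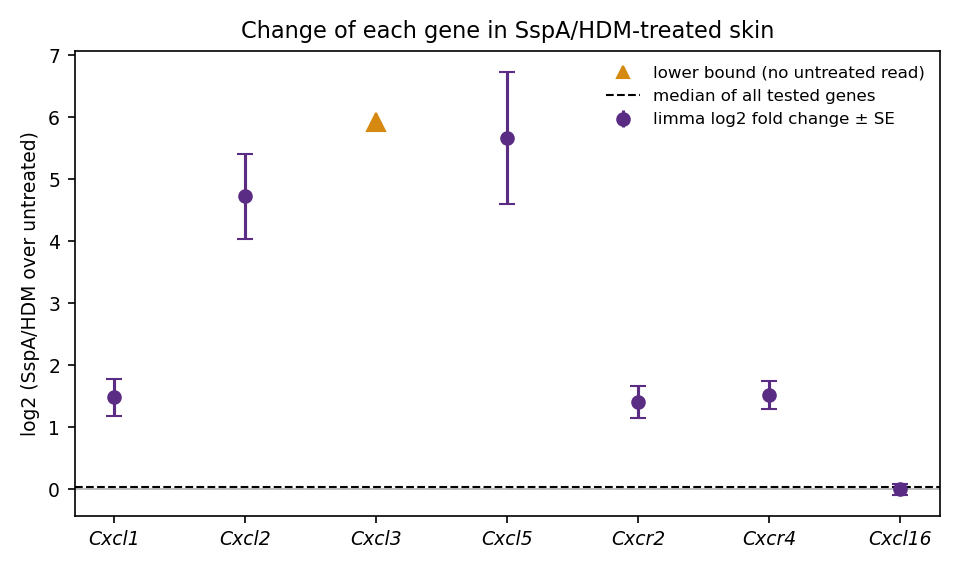
Log2 change of each gene, SspA/HDM-treated over untreated, as the limma estimate with its standard error. The triangle, marked as a lower bound, is Cxcl3 at 5.92, its pooled treated level against a floor of 3 untreated reads. This value leaves out the treated counting error and is not a confidence limit. The dashed line at 0.03 is the median of all tested genes. Cxcl2, Cxcl3 and Cxcl5 lie above 4, Cxcl1, Cxcr2 and Cxcr4 near 1.5, and Cxcl16 at 0.

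Set per kilobase of transcript, the 4 CXCR2 ligands among the members were higher in sum in treated skin, and Cxcl1 was a smaller share of that sum there. The 4 ligands together reached 968, 416 and 138 scaled reads per kb in treated replicates 1 to 3, against 43.9, 32.4 and 30.1 in untreated replicates 1 to 3. The lowest treated sum was thus above the highest untreated one, and the treated sums spread far more widely. The means were 507 ± 422 in treated and 35.5 ± 7.41 scaled reads per kb in untreated skin (SD, n = 3 each), a ratio of 14.3, or 7.82 without treated replicate 1 (exact two-sided permutation p = 0.1, the smallest possible).

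Cxcl1 made up 11.9%, 19.7% and 38.1% of the summed ligand level in treated replicates 1 to 3, against 66.4%, 92.6% and 80.2% in untreated replicates 1 to 3. Cxcl1 was thus most of the sum in untreated skin and not the largest share in any treated sample, though close to it in treated replicate 3. Cxcl2 was largest in treated replicates 1 and 3, with 48.0% and 40.1%, and Cxcl5 in treated replicate 2, with 46.9%. In treated replicate 3 the order of Cxcl2 and Cxcl1 rested on 71 against 59 reads, too few to tell them apart. Cxcl3 was the smallest share in treated replicates 2 and 3, with 9.05% and 4.81%, and made 19.4% in treated replicate 1.

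The mean level per length in treated skin was highest for Cxcl2, at 207 ± 224 scaled reads per kb, then Cxcl5 at 139.9 ± 101, Cxcl1 at 83.2 ± 31.3 and Cxcl3 at 77.3 ± 96.8 (SD, n = 3). The neighbours in this order do not differ beyond their spread. In untreated skin Cxcl1 came first, at 27.7 ± 3.19 scaled reads per kb, clear of Cxcl2 at 4.59 ± 1.96, Cxcl5 at 3.12 ± 4.81 and Cxcl3 at 0.

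The unequal change of the ligands was tested as log2 differences within each library. Cxcl2 minus Cxcl1 was 0.98 ± 1.06 in treated and -2.26 ± 0.68 in untreated skin (SD, n = 3 each), a difference of 3.24. For Cxcl5 minus Cxcl1 the difference between treated and untreated skin was 4.18, and for Cxcl3 minus Cxcl1 it was 3.79. Each of these had an exact two-sided permutation p of 0.1, the smallest possible, and 0.12 after Benjamini-Hochberg adjustment over 6 such differences. The value for Cxcl3 depends on the pseudocount, with 1.84 at a pseudocount of 5 and 4.73 at 0.5.

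**Figure D3:**
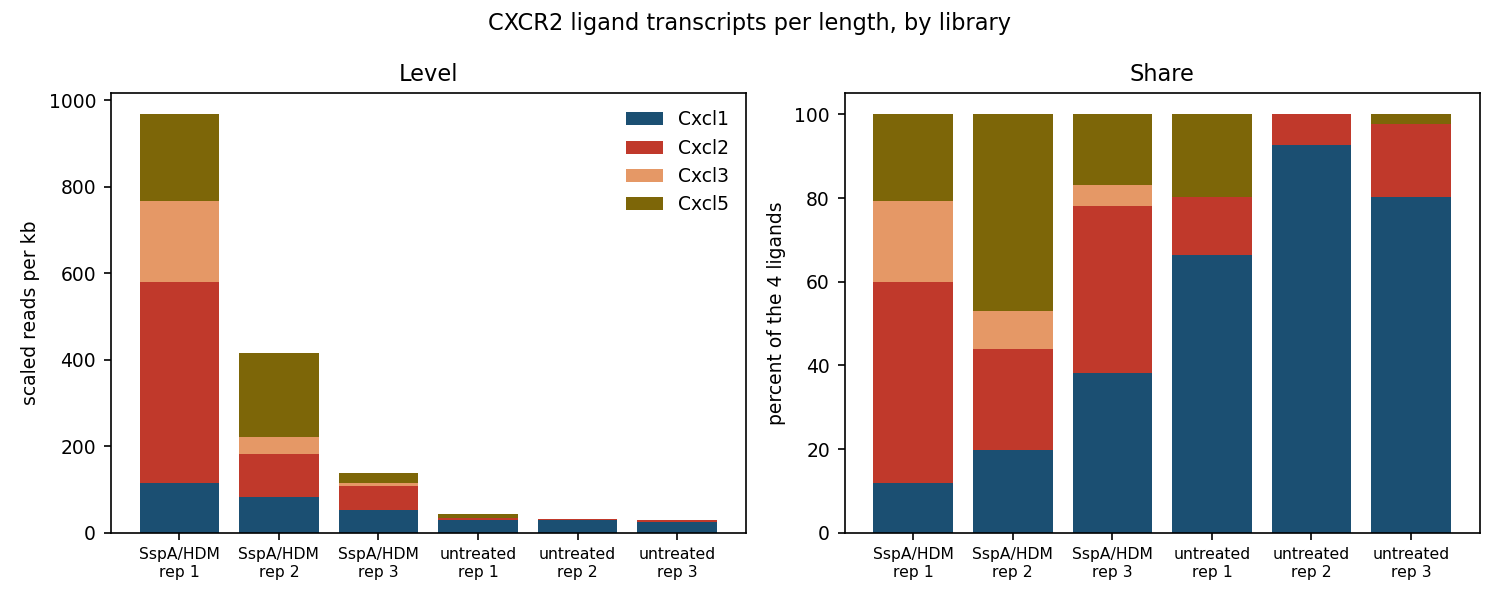
Scaled reads per kb of the 4 CXCR2 ligands among the members, stacked in each library (left) and as a percent of their sum (right), with the SspA/HDM-treated libraries left of the untreated ones. The sum is 968, 416 and 138 in the treated libraries, against 43.9, 32.4 and 30.1 in the untreated ones, and Cxcl1 is at most 38.1% of the sum in treated libraries, against at least 66.4% in untreated ones.

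The 4 CXCR2 ligands among the members lie on chromosome 5 within 146.64 kb, counted from the start of Cxcl5 to the end of Cxcl2, and on the same strand. The span held 6 rows of the table, the other two being Ppbp, which encodes a platelet CXC chemokine precursor, and Pf4, which encodes platelet factor 4. Pf4 had 208, 210.2 and 132 scaled reads in treated replicates 1 to 3, against 166, 158 and 161 in untreated replicates 1 to 3. Its groups overlapped, its log2 fold change was 0.15 and its adjusted p was 0.638 (limma). Ppbp had 19 reads in treated and 11 in untreated skin and was below the filter. Outside the span, the neighbours Rassf6, Mthfd2l and Epgn had log2 fold changes of 0.24, 0.41 and 0.16, and none was called.

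**Figure D4:**
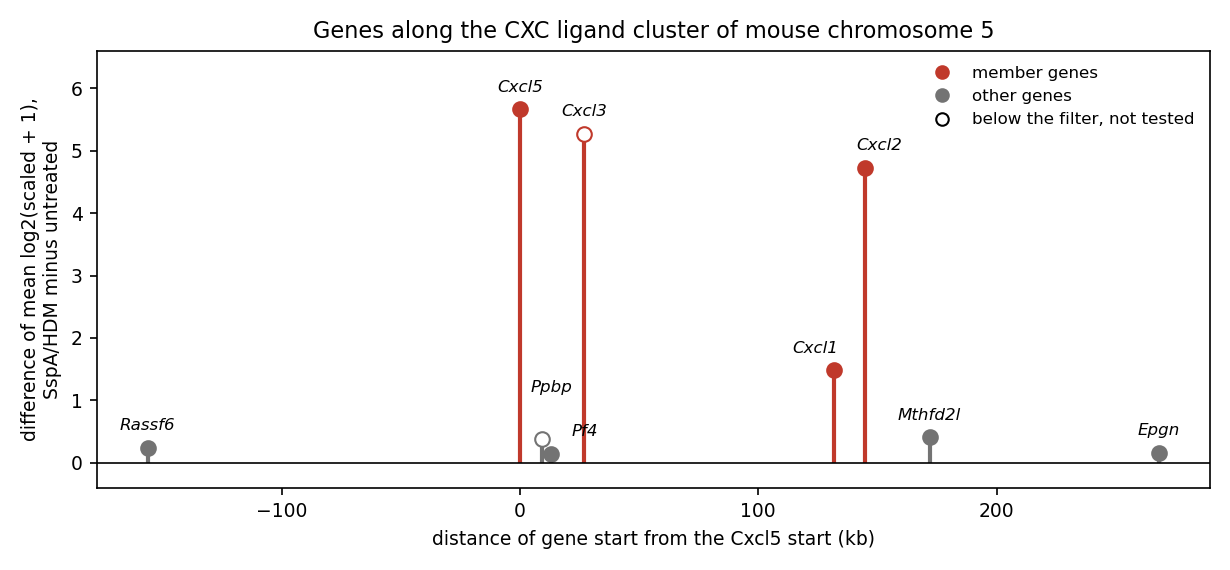
Difference of mean log2(scaled reads + 1), SspA/HDM-treated minus untreated, for genes along the chromosome 5 cluster, by distance of each gene start from the Cxcl5 start in kb. Open circles are genes below the filter, Cxcl3 and Ppbp. The 4 member ligands stand at 1.49 to 5.66, and Pf4, Ppbp and the 3 flanking genes at 0.15 to 0.41.

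Some ligands are close copies. Over their coding sequences, from GENCODE M21, Cxcl2 and Cxcl3 matched at 89.7% of aligned bases and shared an exact run of 110 bases. Cxcl1 matched Cxcl2 at 78.8% and Cxcl3 at 75.7%, with exact runs of at most 23 bases. Reads of Cxcl2 and Cxcl3 could therefore be assigned to either gene or dropped, and the sources used here do not give how such reads were counted. The absence of Cxcl3 reads from untreated libraries, in which Cxcl2 had 13 reads, stands beside that limit.

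Cxcr2, the receptor of these ligands and best known from neutrophils, rose in treated skin. It had 602, 558 and 297 scaled reads in treated replicates 1 to 3, against 219.8, 149 and 162 in untreated replicates 1 to 3. The treated samples all lay above the untreated ones, and treated replicate 3 was again the lowest of its group. The log2 fold change was 1.40 ± 0.26 (SE), 2.64-fold, with an adjusted p of 0.0102 (limma). This call held in all 20 alternatives judged at an adjusted p under 0.05, with adjusted p-values of at most 0.0405. It was lost at the stricter threshold of an adjusted p under 0.01. Cxcl2 minus Cxcr2 within a library differed by 3.32 on the log2 scale between treated and untreated skin (exact two-sided permutation p = 0.1, the smallest possible, adjusted 0.12). The transcript NM_009909, of 3039 bases, lies at chr1:74153994-74161246 on the plus strand.

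Neutrophil marker genes were higher in the same samples as the ligands and Cxcr2. Of 20 listed, 15 were tested and 14 rose in treated skin, with none lower and a median log2 fold change of 3.73, and 7 of the 14 lost their call with limma-voom. They included Retnlg, a resistin-like gene of neutrophils, at 4.50 (adjusted p of 0.0505 with limma-voom) and the lectin receptor gene Clec4d at 3.49. Stfa2l1 had 193 reads in treated and 1 in untreated skin, and the granule protein gene Ngp had 64 in treated and 2 in untreated skin. The exception was the decoy receptor gene Il1r2, at 0.03. The summed level of the list ran from 1401 to 5630 scaled reads in treated and from 624 to 781 in untreated libraries. Il1r2 alone gave 494, 416 and 254 scaled reads of these sums in treated replicates 1 to 3. In untreated replicates 1 to 3 it gave 383, 347 and 368. The list's defining members Ly6g and Mrgpra2b were at 0 in all untreated libraries. Ly6g had 30.5, 9.80 and 2.52 scaled reads in treated replicates 1 to 3. The other untested markers were Camp, with 31 reads in treated and 11 in untreated skin, Mpo, with 6 in treated and 3 in untreated skin, and Elane, with 15 in treated and 14 in untreated skin. All 15 tested markers had their lowest treated value in replicate 3, as did 6 of the 7 members, beside 46.9% of the 1439 genes called higher. This also held for 11 of the 12 keratinocyte markers, 9 of the 10 fibroblast markers and 10 of the 11 leukocyte adhesion genes tested, against 1 of the 8 T cell markers. The part of neutrophil number in the values of the members was not tested.

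The 11 markers most restricted to neutrophils, a subset of that list, had 6 tested genes, and all 6 rose, with a median log2 fold change of 4.21. The summed level of the 11 ran from 443 to 1762 scaled reads in treated and from 52.8 to 121 in untreated libraries. Cxcr2 alone was above that sum in each untreated library, at 219.8, 149 and 162 scaled reads in replicates 1 to 3. It was below the sum in each treated library, and which cells held it was not tested. The 5 untested markers were Ly6g, Mrgpra2b, Camp, Mpo and Elane, and 2 of the 6 calls were lost with limma-voom. Cxcr2 minus the mean of the 15 tested markers, on the log2 scale, was 1.29, 1.89 and 2.47 in treated replicates 1 to 3, against 4.06, 4.35 and 3.92 in untreated replicates 1 to 3. The groups were apart, with treated values lower, and the difference was -2.22 (exact two-sided permutation p = 0.1, the smallest possible). Against the restricted markers it was -2.71. The difference of -2.22 from the 15 tested markers depends on the pseudocount, with -1.48 at a pseudocount of 5 and -2.45 at 0.5.

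**Figure D5:**
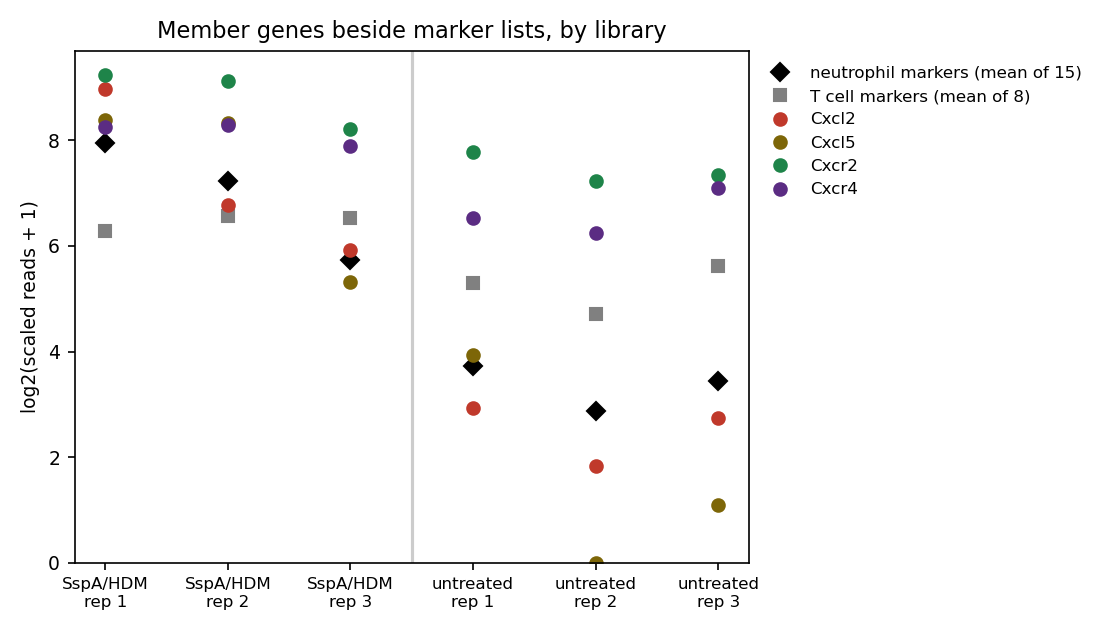
Log2(scaled reads + 1) of Cxcl2, Cxcl5, Cxcr2 and Cxcr4 beside the mean of the 15 tested neutrophil markers and of the 8 tested T cell markers, with the SspA/HDM-treated libraries left of the untreated ones. The neutrophil mean is 7.94, 7.23 and 5.74 in the treated libraries, against 3.73, 2.88 and 3.44 in the untreated ones, and Cxcl2 and Cxcl5 are also lowest in treated replicate 3 within that group.

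Cxcr4, the receptor for CXCL12 found on many leukocytes and on some endothelial and epithelial cells, rose as well. It had 303, 310.4 and 236 scaled reads in treated replicates 1 to 3, against 91.2, 74.6 and 135 in untreated replicates 1 to 3. The groups were apart, and the treated samples were closer to each other, relative to their mean, than for any other member that rose. The log2 fold change was 1.52 ± 0.22 (SE), 2.87-fold, with an adjusted p of 0.0046 (limma). Cxcr4 was called in all 20 alternatives judged at an adjusted p under 0.05, with adjusted p-values of at most 0.0214. Cxcr4 minus Cxcr2 within a library differed between treated and untreated skin by 0.12 on the log2 scale (exact two-sided permutation p = 0.7), a difference within the spread of either group. Cxcr4 (NM_009911, 1810 bases) lies at chr1:128588199-128592299 on the minus strand.

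The ligand of CXCR4 was lower in treated skin. Cxcl12 had a log2 fold change of -0.37 ± 0.10 (SE) with an adjusted p of 0.0386 (limma), and the call was lost on leaving out any library but treated replicate 2, at adjusted p-values of up to 0.109. Of the 8 tested genes of the CXCL12 and CXCR4 axis, 2 rose, Runx1 at 0.96 and Hif1a at 0.44, and 2 fell, Foxc1 at -0.72 and Cxcl12. HIF-1α is known to induce CXCR4, RUNX1 is a transcription factor of blood cells, and FOXC1 is known to sustain CXCL12 in mouse marrow stroma. Runx1 was not called without treated replicate 2, at an adjusted p of 0.0733, and Hif1a and Foxc1 each lost their call without any of several libraries, at adjusted p-values of up to 0.102 and 0.0976.

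Cxcl16 had nearly equal means in both groups and was the most even of the members. It had 441, 477 and 477 scaled reads in treated replicates 1 to 3, against 444, 469.6 and 484 in untreated replicates 1 to 3. The groups overlapped over nearly their whole range, and replicate 3 was not low in treated skin. The means were 465 ± 20.9 in treated and 466 ± 20.3 scaled reads in untreated skin (SD, n = 3 each), and the log2 fold change was -0.0024 ± 0.081 (SE) with an adjusted p of 0.99 (limma). The ratio of summed reads at equal depth was 1.00, with a 95% interval of 0.927 to 1.08 for counting error only. Per length its mean was 276 scaled reads per kb in each group, above the means of the other members, but in treated replicate 1 Cxcl2 was higher, at 464 against 262 scaled reads per kb for Cxcl16, and the treated means of these genes do not differ beyond the spread of Cxcl2. Cxcl16 minus Cxcl1 within a library differed between treated and untreated skin by -1.49 on the log2 scale (exact two-sided permutation p = 0.1, the smallest possible, adjusted 0.12).

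The receptors stood between Cxcl16 and the smaller ligands in level per length. Cxcr2 averaged 159.7 ± 54.2 scaled reads per kb in treated and 58.3 ± 12.3 in untreated skin, and Cxcr4 averaged 156 ± 22.6 in treated and 55.4 ± 17.3 in untreated skin (SD, n = 3 each). The levels of these receptors did not differ from each other beyond their spread in either group. In untreated skin both lay above all 4 CXCR2 ligands among the members, while in treated skin the mean of Cxcl2 was above both, within its own wide spread.

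Treated replicate 3, the lowest treated library for 6 of the 7 members, was also the deepest library, and untreated replicate 2 the shallowest. In the 4 libraries without them, all 5 members called in the full data were called again, at adjusted p-values of at most 0.0035 (limma). Cxcl1 then had a log2 fold change of 1.83, Cxcl2 of 5.04, Cxcl5 of 5.84, Cxcr2 of 1.61 and Cxcr4 of 1.46. Cxcl16 had a value of -0.0152.

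The row for Cxcl16 carries the identifier NR_151497, a non-coding transcript record of 1686 bases at chr11:70454389-70459984 on the minus strand. It overlaps Zmynd15, on the opposite strand, by 552 bases. The library kit was stranded, but whether strand was used in counting is not given, so reads in the overlap are uncertain. Zmynd15 had a log2 fold change of 0.25 and an adjusted p of 0.414 (limma).

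Cxcr6, the receptor of CXCL16, rose in treated skin. Among 7 tested CXC and scavenger receptors other than the members, 2 rose and 1 fell. Cxcr6 had a log2 fold change of 2.22 ± 0.27 (SE) and an adjusted p of 0.0025 (limma), and kept its call on leaving out any library. Cxcr3, the receptor of CXCL9 and CXCL10 on effector T cells, rose by 1.35 and lost its call without treated replicate 2, at an adjusted p of 0.0652. Ackr4, a scavenger of CC chemokines, fell with a value of -0.87 and lost its call without untreated replicate 1, at an adjusted p of 0.0527. T cell markers were higher in part in the same samples. Of 8 tested, 5 rose, Icos at 1.98, Cd28 at 1.99, Cd4 at 2.39, Cd8a at 2.63 and Lck at 0.85. Without treated replicate 2 the calls of Cd8a and Lck were lost, which left 3 called. Lck also lost its call without untreated replicate 1 or 2 and in the 4 libraries of like depth. The genes of the CD3 chains were not called, with Cd3d at 0.92, Cd3e at -0.49 and Cd3g at -0.22, and Cd3e averaged 50.3 scaled reads in treated and 70.9 in untreated skin, at an adjusted p of 0.103 (limma). The list's summed level was 754 to 950 scaled reads in treated and 323 to 477 in untreated libraries, with none at 0 throughout a group, and the part of T cells in the receptor values was not tested.

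The other CXC ligands divided. Of 6 tested, Cxcl9 and Cxcl10, the interferon-induced ligands of CXCR3, rose by 1.30 and 0.96, and Cxcl12 and Cxcl14, a ligand made by resting epidermis, were lower in treated skin, at -0.37 and -0.74. The calls of Cxcl9 and Cxcl10 were lost without treated replicate 2 or untreated replicate 1, at adjusted p-values of up to 0.057 and 0.0602. Cxcl14 was called on leaving out any library, at adjusted p-values of at most 0.0354.

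Cytokines that are known to switch on CXCR2 ligands in epithelial and stromal cells were higher in part. Of 13 tested inducing cytokines and their receptors, 6 rose and none fell, with a median log2 fold change of 0.19. Il17f rose with an adjusted p of 0.0011 (limma), with 94 reads in treated and 0 in untreated skin. Il1b rose by 2.61 with an adjusted p of 0.0079 (limma), and its call was lost with limma-voom. Il6 at 1.78, Tnf at 1.50, and the receptor genes Tnfrsf1b at 0.71 and Il1rap at 0.69 were called in the full data, but each lost its call without at least 1 library. Without treated replicate 1 or treated replicate 2 the list had 3 genes higher. Below the filter, Csf3, which encodes the neutrophil growth factor G-CSF, had 71 reads in treated and 1 in untreated skin, and Il17a had 36 in treated and 2 in untreated skin.

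Genes of the κB pathway and of chemokine transcript stability were mostly not called, as was the case for most tested genes (9.26% higher and 7.23% lower). Of 16 tested, 1 rose, Zc3h12a, which encodes the RNase Regnase-1 that degrades inflammatory transcripts, at 0.60 with an adjusted p of 0.0063 (limma), and none fell. The median was 0.08. Nfkbiz, which encodes an atypical IκB protein needed for part of the IL-17 response, had a value of 0.20 with an adjusted p of 0.127.

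Genes that carry the signal from CXCR2 were in part higher. Of 18 tested, 7 rose and none fell, with a median of 0.18. Gng2, a G protein subunit gene, rose by 0.71 with an adjusted p of 0.0035, and Rac2, the small GTPase gene of blood cells, by 1.02 with an adjusted p of 0.0095 (limma). Dock2, an activator of Rac, rose by 0.98 and was not called without treated replicate 2. Arrb2, the β-arrestin gene that ends CXCR2 signalling, rose by 0.54 and was not called without treated replicate 1 or 2 or untreated replicate 1 or 2. Between 2 and 4 of these genes were higher without treated replicate 1 or 2 or untreated replicate 1 or 2.

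Leukocyte adhesion genes, through which neutrophils arrest on and cross vessels, were mostly higher. Of 11 tested, 8 rose in the limma test, against 6 with edgeR and 5 with DESeq2, and none fell, and 4 of the 8 lost their call with limma-voom. Itgal, the integrin chain of LFA-1, rose by 2.06, and Vcam1, an endothelial ligand of integrins, by 1.49, and both were called on leaving out any library. Selplg, which encodes the ligand of P-selectin, rose by 0.84 and lost its call without treated replicate 1 or 2 or untreated replicate 1 or 2. The count was 3 without treated replicate 1, treated replicate 2 or untreated replicate 2, and 5 without untreated replicate 1. Endothelial markers had 2 of 10 tested genes higher, Vwf at 0.70 and Emcn at 0.46, beside 9.26% of all tested genes. With edgeR and DESeq2, 1 was called in each case. Emcn kept its limma call without untreated replicate 2 and lost it without any other library. Their summed level was 6029 to 7111 scaled reads in treated and 4935 to 5533 in untreated libraries.

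Genes whose proteins cut or present chemokines included strong rises. Of 12 tested, 4 rose and none fell, with a median of 0.13. Mmp8, the neutrophil collagenase known to cut CXCL5 in the mouse, rose by 5.01 and lost its call with limma-voom, at an adjusted p of 0.105, and Mmp13 rose by 4.16. Mmp9 at 1.95, and Adam10 at 0.35, the sheddase that releases CXCL16, both lost their call without treated replicate 1 or 2 or untreated replicate 1 or 2. Mmp8 is also in the neutrophil list.

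By profile over the 6 libraries, the genes nearest to the mean of the tested CXCR2 ligands were Fpr1 and Fpr2, the formyl peptide receptor genes, Retnlg, Mmp13 and Cd300lf. Their root mean square differences from it were 0.16 for Fpr1, 0.32 for Fpr2, 0.28 for Retnlg, 0.42 for Mmp13 and 0.45 for Cd300lf, in log2 units after centring. Fpr1, Fpr2 and Retnlg are in the neutrophil list. Nearest to Cxcr2 were Ipcef1 at 0.10, Cyp7b1 at 0.13, Tlr2 at 0.16, Plek at 0.17 and Fgr at 0.18. Among the members, Cxcl1 and Cxcr2 were the most alike in this measure, at 0.21, while Cxcl2 and Cxcl3 were 0.67 apart.

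The markers of other cell types did not all move. Macrophage and monocyte markers had 5 of 12 tested genes higher and none lower, among them Ly6c2 at 2.41, Cd14 at 1.36, Fcgr1 at 1.22 and Cd68 at 0.69. Ly6c2 and Cd68 kept their calls on leaving out any library. Cd14 lost its call without any library but treated replicate 3, at adjusted p-values of up to 0.133. Fcgr1 lost its call without treated replicate 1 or 2 or untreated replicate 1 or 2, at adjusted p-values of up to 0.114. Both were also lost with limma-voom. The macrophage and monocyte list had summed levels of 7165 to 9720 scaled reads in treated and 4966 to 6497 in untreated libraries. It had 3 genes higher without treated replicate 1 or 2 or untreated replicate 1 or 2. Mast cell markers had 3 of 8 higher, Fcer1a at 2.25, Kit at 0.69 and Tpsb2 at 0.41, each lost without treated replicate 2, and summed levels of 2133 to 2503 scaled reads in treated and 1528 to 2249 in untreated libraries. Of 10 fibroblast and 12 keratinocyte markers tested, cell types that can make Cxcl1 and Cxcl5, limma called none in either direction. At an unadjusted p under 0.05 limma had 3 fibroblast and 2 keratinocyte markers lower and none higher, and edgeR and DESeq2 each called 2 fibroblast markers lower and no keratinocyte marker. What part these cells have in the ligand values was not tested. Where limma called no gene of a list lower, edgeR and DESeq2 called none lower either, except for 1 gene of the chemokine processing list with each and the fibroblast markers. At an unadjusted p under 0.05 limma had 1 gene lower in each of the κB, CXCR2 signalling, chemokine processing and T cell lists, and 0 in the neutrophil, inducing cytokine, adhesion, macrophage, endothelial and mast cell lists.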

How the data were processed

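Stranded mRNA libraries were prepared from whole skin (3 treated and 3 untreated samples), per the labels' protocols. The submitters' processing notes name bcl2fastq 2.20.0.422, the aligner STAR, DESeq2 and build mm10. How reads were counted, with which strand setting and filters, is not given in the sources used here. In 1 table, the authors deposited a scaled signal per gene, with the authors' deposited log2 fold changes, p-values and adjusted p-values. In all 6 columns 100% of the 17564 deposited signal values came out as whole reads to within 0.1, and these reads were used for filtering, floors and the count tests among the alternatives.

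Genes passing filterByExpr of edgeR 4.0.16 (minimum count 10, minimum total 15) entered the test of limma 3.58.1 (R 4.3.3) on log2(value + 1), with a trend in the spread and group as the only term. A gene was called at an adjusted p under 0.05. The edgeR quasi-likelihood test called 5 of the 6 tested members, as did DESeq2 1.42.0 on the same reads. Depth limits the genes with few reads, and 3 reads over the untreated group, the floor used, equal 1.17 scaled reads. This floor, the 95% limit of Cxcl3 and the 95% interval of Cxcl16 cover only counting error. No gene exceeded 0.923 reads per base of transcript in any library, a limit that no source explains. On simulated counts the limma test was checked before use. Replicate numbers were not used to pair the samples in the main test.

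The members and the 16 gene lists were chosen with earlier results of these data known. Each list count stands beside the 9.26% of all tested genes called higher and the 7.23% called lower. Named were all members, up to 4 genes per list with the smallest p (all called ones where 5 or fewer), and the 5 genes nearest in profile to the mean of the tested ligands and to Cxcr2. A few genes covered by this rule are not reported here. Named after their values were seen were Slc6a13, Nfkbia, Nfkbiz, Il1r2, Ly6g, Mrgpra2b, Camp, Mpo, Elane, Cd3d, Cd3e, Cd3g, Tnf, Il6, Csf3, Il17a and the neighbours of the ligands on chromosome 5. Promoter sequences are from RefSeq (GRCm38.p6) and coding sequences from GENCODE M21, aligned with Biopython 1.88. Alternatives were other scalings, tools, filters, pseudocounts and thresholds, a replicate block, the 4 libraries of like depth, leaving out each library, and, chosen after seeing the data, reads estimated from filled positions.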

Additional observations from a re-analysis of the deposited data

How the results depend on the processing

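The 5 called members were higher in every alternative run, and Cxcl16 was called in none. The count of members called higher was 5 in most alternatives. It was 4 without treated replicate 2, where Cxcl1 was lost, 6 without a filter beyond 1 read, with a filter of at least 1 CPM in 3 libraries and in the authors' deposited table, where Cxcl3 is included, and 3 with limma-voom, where Cxcl2 and Cxcl5 were lost. At an adjusted p under 0.01 it was 2, Cxcl2 and Cxcr4. The cause of these differences was not tested beyond the stricter threshold itself. Over all genes, 1439 were called higher and 1123 lower, against 922 higher and 640 lower without a trend in the spread and 362 higher and 288 lower at an adjusted p under 0.01. Leaving out 1 library gave 597 to 1389 higher and 518 to 1333 lower genes, the lowest both without treated replicate 2. Cxcr4 minus Cxcr2, which was 0.12, turned to -0.077 without treated replicate 3 and to -0.092 without untreated replicate 1, within a range up to 0.41 without untreated replicate 3, and the cause was not tested. With the replicate number as a block, 5 members and 1348 genes in all were called higher and 1096 lower. Same-numbered samples deviated from their group means with correlations of -0.085, -0.055 and 0.054. For differently numbered samples the correlations ran from -0.098 to 0.146. With 3 samples per group these values cannot decide whether the numbers pair the samples. In the 4 libraries of like depth, without treated replicate 3 and untreated replicate 2, the same 5 members were called. With reads estimated from filled positions, chosen after seeing the data, Cxcl2 had a log2 fold change of 4.84 and Cxcl5 of 5.67. Depth limits Cxcl3 and the untreated values of Cxcl2 and Cxcl5, which rest on 0, 13 and 14 reads.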
